A study of Mus musculus with 12 samples.

Results

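Macrophages of the Mrc1 and C1q side are the cells described here, in 6 mammary tumours of the mouse carcinoma line 4T1. They were chosen by measured values, as the cells that the authors' annotation calls macrophages and in which the summed raw UMIs (sequence tags that count captured RNA molecules) of Mrc1, Fcrls, Msr1, C1qa and Siglec1 exceeded those of Arg1, Thbs1, Inhba, Mmp19 and Clec4n. The rule took 9443 of 24267 annotated macrophages in the 6 CD45 libraries, which held 54955 of the 115612 cells of the series. Called doublets, droplets scored as holding more than 1 cell, were left out of the shares and levels below, so that 9385 of 24068 macrophages remained. In 14558 macrophages the second sum was the larger, and these are called the Arg1-side macrophages below. The other 125 had equal sums.

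The tumours grew in the mammary fat pad of female BALB/c mice of 9 to 11 weeks, which have an intact immune system, and which shared the strain of origin of 4T1. In 5 groups the tumours carried a clone grown from a single 4T1 cell (named E, M, and EM1 to EM3) and in the sixth the parental line, so each clone is 1 genetic sample of the line. Each group was 1 tumour, split into a Total library of all cells and a CD45 library enriched with magnetic beads for CD45, the surface antigen of leukocytes. All tumours were digested with collagenase A and hyaluronidase and their cells were fixed before capture. The clones span epithelial to mesenchymal states of the tumour cells, and the study asked how that state goes with the immune cells of the tumour. With 1 tumour a group there is no spread between tumours of a group, so differences between tumours carry no test, and every 95% interval covers counting error only.

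Macrophages of tumours arise mostly from blood monocytes and can take up a resident-like, scavenging state. Mrc1 (the mannose receptor CD206), Msr1 (scavenger receptor A), Siglec1 (CD169) and Fcrls are surface receptors of such cells, and C1qa encodes a chain of C1q, the complement component that also coats dying cells for uptake. The genes of the second sum mark a state described in injured and hypoxic tissue: Arg1 encodes arginase, Thbs1 the matrix protein thrombospondin, Inhba a chain of activin A, Mmp19 a matrix protease and Clec4n the fungal receptor dectin-2.

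The CD45 libraries held 28083101 to 57116299 UMIs in 6791 to 11024 cells, called doublets included. Cell barcodes here join a droplet barcode of 16 bases to a second part that marks the library. Pairs of libraries shared either 12.2% to 19.1% of the smaller library's droplet barcodes or 0.686% to 1.91%. Pairs of the first kind shared no full cell barcode, and pairs of the second kind 0 to 189. By this measure 4 captures were made: E with EM3, EM1 with EM2, M alone and the parental tumour alone, each with both of its libraries. The comparisons of EM3 with E and of EM2 with EM1 therefore lay within a capture, whereas for M and the parental tumour capture and tumour cannot be told apart. Of the Mrc1/C1q macrophages, 16.6% (parental) to 37.3% (EM3) lay in a droplet barcode also seen in another library.

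The share of macrophages on the Mrc1 and C1q side differed widely between tumours. It was 12.99% (95% Clopper-Pearson interval 12.1 to 13.9) in E, or 665 of 5118 macrophages. The EM clones had 66.1% (EM1, 2199 of 3328), 50.9% (EM2, 2329 of 4573) and 24.0% (EM3, 1213 of 5061). M had 59.9% (1522 of 2540) and the parental tumour 42.3% (1457 of 3448). The order from low to high was E, EM3, the parental tumour, EM2, M and EM1, with intervals that did not overlap but that cover counting error within 1 library a tumour and not the spread between tumours. Within captures, EM3 exceeded E by 11.0 percentage points (9.47 to 12.5) and EM2 lay below EM1, with a difference of −15.1 points (−17.3 to −13.0). The parental tumour lay below M (−17.7 points, −20.2 to −15.1), and M exceeded E by 46.9 points (44.8 to 49.0).

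In the Total libraries of the same tumours the shares were 16.8%, 66.4%, 54.3%, 40.2%, 66.6% and 51.5%, in the order E, EM1, EM2, EM3, M and parental. E was again lowest, but M and EM1 changed places at 66.6% and 66.4%, and the difference between EM3 and E was 23.4 points there, more than in the CD45 libraries. Over all cells of a CD45 library the share ran from 6.24% in E to 26.0% in EM2. With each cell thinned to 2000 UMIs the shares stayed between 13.3% and 66.2% in the same order, although the Mrc1/C1q macrophages were deeper (medians of 6022 to 10154 UMIs per cell) than the Arg1-side macrophages (3712.5 to 6738).

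**Figure D1:**
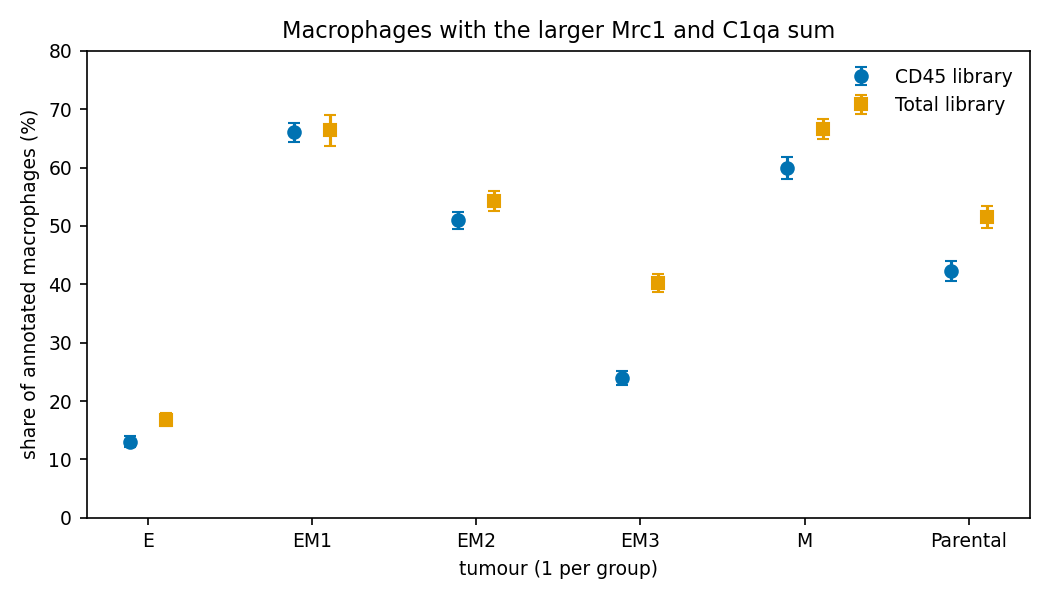
Share of annotated macrophages on the Mrc1 and C1q side (percent, y axis) in each of the 6 tumours (x axis), for the CD45 library (circles) and the Total library (squares). Bars are 95% Clopper-Pearson intervals. E is lowest in both kinds of library, at 12.99% and 16.8%, and EM3 differs most between them, at 24.0% and 40.2%.

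Macrophages lay in every 5% bin of the share of rule-gene UMIs held by the Mrc1 sum, but not evenly. In M 10.2% lay under 5%, 2.25% from 35% to 40% and 10.8% from 90% to 95%, whereas E held 26.3%, 4.10% and 0.352% in these bins. In E, 58.4% of macrophages had under 20% of the UMIs of the 10 rule genes in the Mrc1 sum and 2.38% had at least 80%, with 39.2% between. In M the shares were 23.8%, 33.1% and 43.1%, and in EM1 16.3%, 31.7% and 52.1%. The Mrc1/C1q macrophages of E also sat closer to the limit than those of M: the median cell held 63.8% of its rule-gene UMIs in the Mrc1 sum in E, 67.2% in EM3, 69.6% in the parental tumour, 75.9% in EM2, 78.8% in EM1 and 81.7% in M. Just inside the limit, where the Mrc1 sum was larger by 1 UMI, the 15 cells of E had medians of 57 against 56 UMIs in the sums. Just outside it, 16 cells had 35 against 36. Levels compared between tumours below are thus those of cells that differ in how far they lie from the limit.

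**Figure D2:**
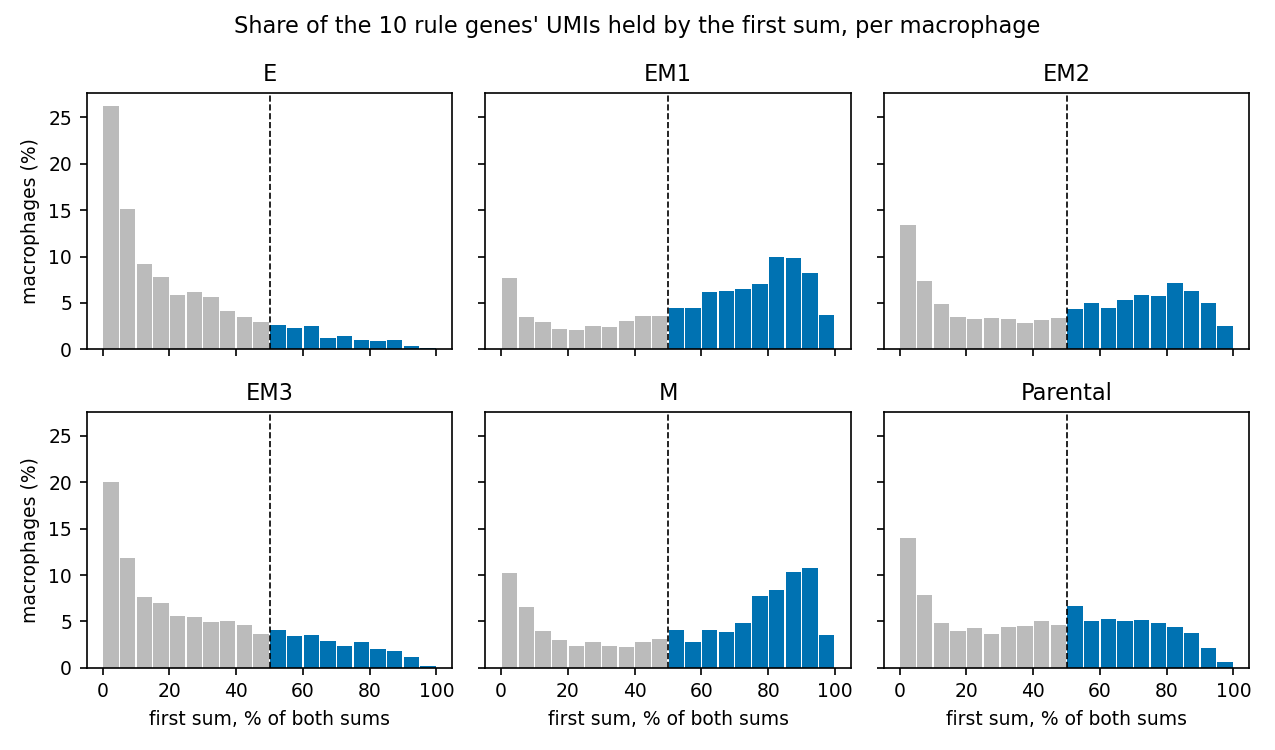
Percent of macrophages (y axis) by the share of the UMIs of the 10 rule genes that the Mrc1 sum holds (x axis, bins of 5%), 1 panel per tumour. Blue bars are at or above 50% (cells with equal sums included), grey bars below. In E 58.4% of macrophages lie below 20% and 2.38% at or above 80%, whereas in M the shares are 23.8% and 33.1%.

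The rule genes themselves, given as CPM (the UMIs of a gene, summed over the cells of a side and scaled to the same total UMIs in every sum) and as a description only, show which genes carried the split. C1qa had 7298 CPM in E, 7629, 8076 and 6991 in EM1 to EM3, and 6969 and 6823 in M and the parental tumour, against 1919.7 to 3426 CPM on the Arg1 side. Mrc1 had 1154 to 1939.8 CPM against 761 to 1174, and Msr1 778 to 1455 against 679 to 1046, so these receptors were shared by both sides. Thbs1 had 621 to 1055 CPM against 7074 to 12496, and Inhba 5.80 to 197 against 416 to 2811. Clec4n was nearly level, at 847 to 1199 CPM against 849 to 1346. On the log2 scale of (CPM + 10) the ratio of the sides ran from 0.42 to 0.89 for Mrc1, from 1.14 to 1.85 for C1qa, from 1.22 to 2.00 for Fcrls and from −3.93 to −3.31 for Thbs1. The name of the side thus fits C1qa, Fcrls and Siglec1 better than Mrc1 and Msr1, whose ratios stayed under 2-fold in all 6 tumours.

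Csf1r, Adgre1, Cd68, Fcgr1 and Lyz2 were higher in these cells than in annotated dendritic cells, granulocytes and T cells of the same tumour. Csf1r, the receptor for the growth factor CSF1, had 1204 to 1595 CPM, against 235 to 626 in annotated dendritic cells, 137 to 213 in granulocytes and 48.1 to 124 in T cells of the same libraries. Adgre1, which encodes F4/80, had 237 to 335 CPM against 20.9 to 100.1 in dendritic cells and at most 36.4 in granulocytes. Cd68 differed less, at 689 to 1086 CPM against 520 to 728 in granulocytes. Ptprc, which encodes CD45, was lower, at 251 to 307 CPM against 584 to 761 in granulocytes and 698 to 903 in T cells. A second label in the deposited tables, from a reference-based caller, named 99.0% to 99.8% of the cells macrophages. On the Arg1 side it named 80.6% to 90.4% macrophages and 7.60% to 15.97% monocytes. The summed markers of T cells reached 8.18 to 23.4 CPM and those of fibroblasts 0.810 to 4.90. Endothelial markers summed to 30.1 to 85.8 CPM (64.9 to 110.8 on the Arg1 side), at most 1.72% of their level in endothelial cells. Those of conventional dendritic cells summed to 14.7 to 27.9 CPM (39.1 to 110.03 on the Arg1 side) and those of epithelial or tumour cells to 7.13 to 20.7 (12.6 to 50.5). The sums of T cell, dendritic cell, epithelial and endothelial markers were lower than on the Arg1 side in 6 of 6 tumours. Those of B cells were higher in 6 of 6, at 8.99 to 20.6 CPM against 4.12 to 15.1, and those of plasmacytoid dendritic cells in 3 of 6, at 1.70 to 3.99 against 1.63 to 3.82. Granulocyte markers summed to 472 to 1761 CPM, highest in EM3, which is 0.261% to 1.07% of their level in annotated granulocytes. On the Arg1 side they summed to 857 to 2051 CPM, more than in the Mrc1/C1q macrophages in every tumour but EM3 (1744 against 1761). The part of these markers in the values below was not tested.

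Apart from the rule genes, 27 of 6290 genes were at least 2-fold higher on the Mrc1 and C1q side in all 6 tumours (0.429% of those compared) and 51 were at least 2-fold lower (0.811%). The same cells gave the split, so these genes are described and not tested. A direction shared by all 6 tumours, of any size, was common: 37.7% of genes were higher in each and 23.7% lower. The 27 and the 51 genes all kept their direction in the 6 Total libraries, where 11 of the 27 and 34 of the 51 were again past 2-fold in every tumour. The share of all genes that kept their direction in the Total libraries is not given here. Over all genes compared there, 15 (0.228%) were at least 2-fold higher and 37 (0.564%) lower. Of the fixed lists, the higher genes held 4 genes of the scavenger, lectin and efferocytosis list, 2 chemokines and 1 complement gene. The lower genes held 5 monocyte genes, 4 inflammatory cytokine genes and 1 growth factor gene. The rest of the 27 and the 51 were on no fixed list. The median mitochondrial percentage of a cell moved with the split: it was 0.363% to 0.546% in the Mrc1/C1q macrophages and 0.110% to 0.306% on the Arg1 side, higher on the first side in 6 of 6 tumours, and its part in these differences was not tested. With TMM scaling, which lowered the median ratio of all genes by 0.07 to 0.18 on the log2 scale, the counts were 16 higher and 67 lower.

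Ccl8 and Ccl12, which encode chemokines, were among the 4 genes whose smallest excess over the tumours was largest. Ccl8 had 495 CPM in E, 515, 567 and 479 in EM1 to EM3, and 179 and 67.3 in M and the parental tumour, against 133, 161, 96.3, 95.2, 24.6 and 7.96 CPM on the Arg1 side. It was thus higher on the Mrc1 and C1q side in each tumour, by 1.62 to 2.45 on the log2 scale, while the level of both sides was low in M and lowest in the parental tumour. Ccl12 had 124 to 281 CPM against 16.9 to 45.4, and its ratio was 1.40 to 2.55. The chemokine list as a whole was mixed. Of its 11 genes compared, 4 were higher and 4 lower in all 6 tumours by any amount, with a list median of −0.15 to 0.52.

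Ccl12 and Ccl8 are neighbours on chromosome 11 (GRCm38.p6, RefSeq), Ccl12 at 82101845 to 82103399 and Ccl8 at 82115185 to 82116799. The 250 bases before each transcript start are shown because both genes were higher on this side in every tumour. Capitals mark TGCTGA, the half-site of Maf factors, read on both strands; this window holds it in 16.1% of the 32851 promoters of the table.
Ccl12 (chr11:82101595-82101844, plus strand): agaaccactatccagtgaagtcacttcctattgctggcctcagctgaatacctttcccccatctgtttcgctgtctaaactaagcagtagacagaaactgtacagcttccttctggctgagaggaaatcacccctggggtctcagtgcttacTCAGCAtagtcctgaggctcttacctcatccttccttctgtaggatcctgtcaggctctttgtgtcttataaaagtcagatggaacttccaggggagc
Ccl8 (chr11:82114935-82115184, plus strand): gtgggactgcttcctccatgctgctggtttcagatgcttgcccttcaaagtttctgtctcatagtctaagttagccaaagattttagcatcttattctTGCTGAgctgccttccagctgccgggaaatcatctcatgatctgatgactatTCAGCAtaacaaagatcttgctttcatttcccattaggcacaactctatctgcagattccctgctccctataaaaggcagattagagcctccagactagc
Both windows hold a match on the opposite strand, which begins 98 bases before the start in Ccl12 and 100 in Ccl8, and Ccl8 has a further match 152 bases before it. A match is a description of the letters and not a bound site. Maf, which encodes a factor of this family, had 146 to 277 CPM in the Mrc1/C1q macrophages and 108 to 274 on the Arg1 side.

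Of 16 genes compared from the list of scavenger, lectin and efferocytosis receptors, 4 were at least 2-fold higher in all 6 tumours. None was lower by that much. By any amount, 11 were higher and 2 lower in all 6 tumours. The list median was 0.18 to 0.51 against 0.02 to 0.10 for all genes. Gas6, the ligand that bridges dying cells to the receptors Axl and Mertk, had 141 to 424 CPM against 35.6 to 104. Stab1, a clearance receptor, had 186 to 615 CPM against 77.0 to 218, and Folr2, the folate receptor of resident macrophages, 85.5 to 384 against 18.3 to 144. Cd163, the haemoglobin scavenger receptor, had 63.6 to 204 CPM against 18.1 to 63.8. Axl ran from 747 to 1112 CPM against 229.8 to 674, and its log2 ratio of 0.52 to 1.66 fell short of 2-fold in some tumours. Of 11 complement genes only C1qc passed, with 2263 to 2858 CPM against 764 to 1310.1. By any amount, 6 of the 11 were higher and 4 lower in all 6 tumours, and their median was 0.02 to 0.44. C1qb, which lies beside C1qa and C1qc on chromosome 4, had 4282 to 5146 CPM against 1471 to 2492, and its ratio of 0.97 to 1.73 missed the limit in EM1 by little.

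Other genes of this direction were Vcam1, an adhesion molecule also carried by resident macrophages, with 140.4 to 754 CPM against 46.2 to 234, and Selenop, a secreted selenium carrier, with 1712 to 2822 against 683 to 1140.2. Hpgds, a prostaglandin D2 synthase, had 89.4 to 154 CPM against 26.8 to 46.8. Bhlhe41, a transcription factor, had 41.6 to 105 CPM against 8.49 to 21.6. Plau, Ms4a7, Cbr2, Tmem86a and Ttyh2 completed the 12 genes whose smallest excess was largest, at smallest ratios of 1.20, 1.18, 1.25, 1.25 and 1.24.

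Genes that were lower included Slpi, a protease inhibitor, with 50.3 to 184 CPM against 1011 to 1728, and Sdc1, a heparan sulphate proteoglycan, with 38.4 to 145 against 664 to 1156. Their log2 ratios were −4.37 to −3.02 and −3.80 to −2.91. Of 12 monocyte genes compared, 5 were at least 2-fold lower in all 6 tumours and none higher by that much. By any amount, 8 were lower and 2 higher in all 6 tumours, and the list median was −1.36 to −0.64. Vcan, a matrix proteoglycan of monocytes, had 3.98 to 11.0 CPM against 87.3 to 355. Plac8 had 17.8 to 90.4 CPM against 256 to 593, and Ly6c2, the Ly6C antigen of inflammatory monocytes, 1.61 to 13.8 against 44.4 to 201. Hp and Chil3 were the other members of the list that passed. Ly6c1, Met, Sgms2, S100a6 and F10 were outside the list and lower as well, at smallest distances of −1.68, −1.81, −1.76, −1.75 and −1.67 from 0. Ccr2, the receptor by which monocytes enter tissue, differed less, at 70.9 to 139 CPM against 134 to 161.

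Of 13 inflammatory cytokine genes, 4 were at least 2-fold lower and none higher, with list medians of −1.44 to −0.60. Il1b had 2792 CPM in E, 3354, 1959 and 2176 in EM1 to EM3, and 841 and 1463 in M and the parental tumour, against 3814 to 7403 on the Arg1 side. Cxcl2 and Cxcl3, which draw neutrophils, had 1161 to 2756 CPM against 3866 to 6477 and 139 to 461 against 1177 to 2201. Ptgs2, the inducible cyclooxygenase, had 43.8 to 493 CPM against 590.2 to 1493. No gene of the lists of MHC class II presentation, interferon-gamma response, lipid handling and lysosome, hypoxia and glycolysis or checkpoint receptors passed in either direction, against 0.429% and 0.811% of all genes, shares at which lists of this size would hold few or none. The median of the interferon-gamma list was 0.27 to 0.55, above that of all genes in 6 of 6 tumours, and 7 of its 14 genes were higher and 2 lower in each tumour, against 37.7% and 23.7% of all genes. The hypoxia and glycolysis list had a median of −0.35 to −0.17, below that of all genes in 6 of 6 tumours, with 1 of its 15 genes higher and 9 lower in each.

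**Figure D3:**
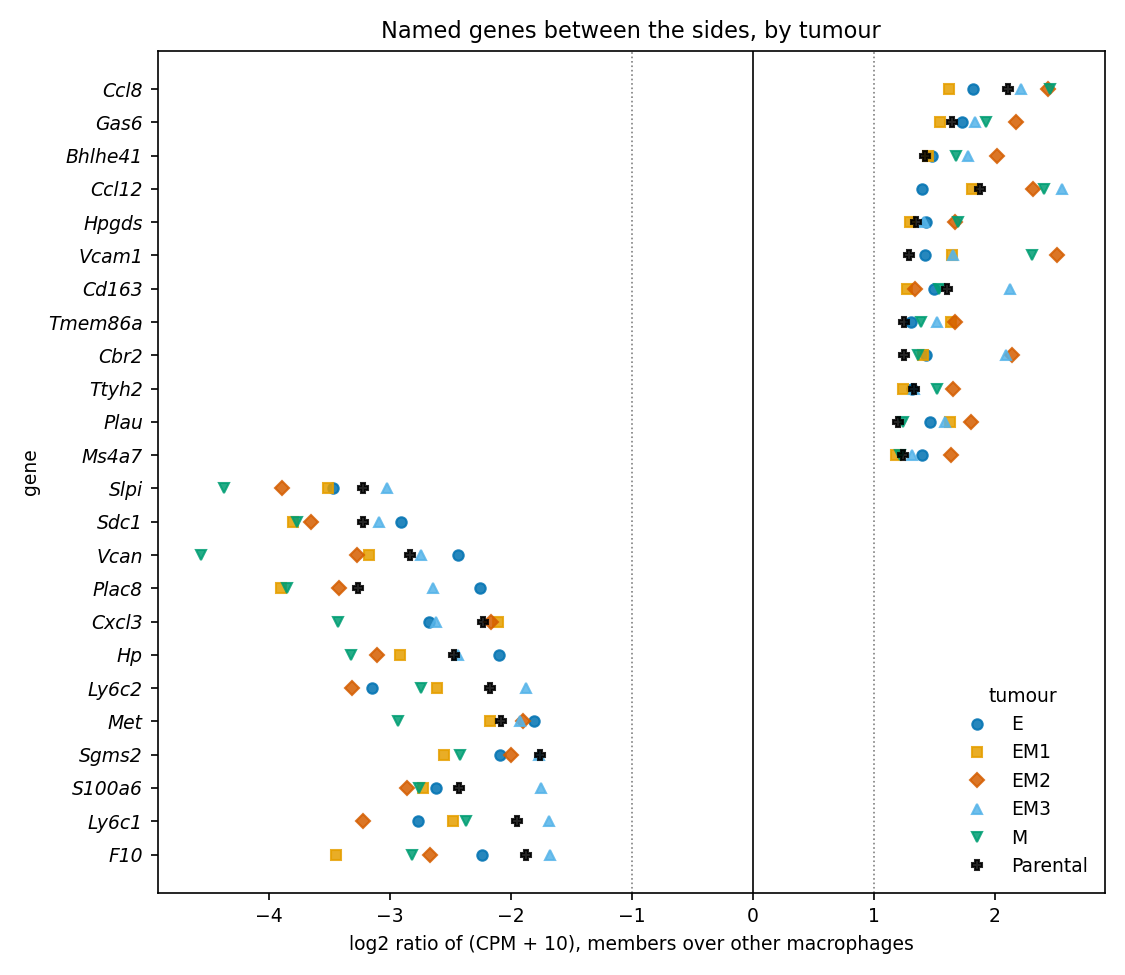
Log2 ratio of (CPM + 10) between the Mrc1/C1q macrophages and the Arg1-side macrophages (x axis) for the 12 most evenly higher and 12 most evenly lower genes (y axis). Each symbol is 1 tumour, and dotted lines mark 2-fold. The smallest excess of Ccl8 is 1.62, and every tumour has Slpi at −3.02 or lower.

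Within the side, levels also differed with distance from the limit, as a description of cells that the rule genes ordered. Cells were divided at Mrc1-sum shares of 75% and 90% of the rule-gene UMIs, with cells exactly at a limit placed below it, and the smallest of the 3 groups, the farthest from the limit in E, held 22 cells. C1qb was higher from each group to the next in 6 of 6 tumours, with medians over tumours of 4650.4, 5112 and 5503 CPM. Vegfa, the angiogenic growth factor, was lower at each step in 6 of 6, with medians of 1166, 773 and 519 CPM, and Il1b in 5 of 6, with 2401, 1699 and 1140.2 CPM. Spp1, which encodes osteopontin, was lower at each step in 5 of 6 tumours as well, with 2083, 1686 and 928 CPM. Csf1r was higher at each step in 5 of 6, with 1343, 1472 and 1570.3 CPM. H2-Aa was higher at each step in 2 tumours and lower in 1, so it had no common direction.

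Between tumours, the Mrc1/C1q macrophages differed in MHC class II, the molecules that present antigen to CD4 T cells. H2-Aa, a class II alpha chain, had 10942 CPM in E, 11116, 8972 and 6548 in EM1 to EM3, and 3404 and 2659 in M and the parental tumour. Cd74, the invariant chain that loads class II, had 24372, 22010.0, 18236, 14366, 7986 and 6422 CPM in that order. H2-Eb1 had 11331, 9986, 7429, 5938, 2739.6 and 1989.6 CPM, and H2-Ab1 7068, 5945, 4679, 3910.4, 1939.7 and 1338. The parental tumour was lowest for all 4 genes and M next, and EM3 was lowest of the remaining tumours.

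Of the 8 class II genes that reached 50 CPM, 6 were lower in M and the parental tumour than in each of the other 4 tumours, and on the Arg1 side 7 of 8 were. Of all 4398 genes at that level, 302 (6.87%) had this order in the Mrc1/C1q macrophages and 354 (8.05%) on the Arg1 side. H2-Aa had 6765 to 10330.1 CPM in E, EM1, EM2 and EM3 on the Arg1 side and 2839 and 3286 in M and the parental tumour. Cd86 and Cd80, costimulatory molecules of the same list, were the exceptions among the Mrc1/C1q macrophages. M and the parental tumour were also the tumours captured alone, so tumour and capture cannot be told apart here. Ciita, the class II transactivator, had 16.8 to 22.3 CPM in the first 4 tumours, 6.01 in M and 2.03 in the parental tumour.

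Class II promoters carry an X box and a Y box, which the factors RFX and NF-Y bind and at which the transactivator CIITA acts. The upstream bases of H2-Aa and H2-Eb1 (RefSeq, GRCm38.p6) are shown because both genes were lowest in the parental tumour and next lowest in M. Capitals mark GCAACT, the letters of the X box that both share, and CTGATTGG, the Y box, searched on both strands. These letters were chosen with both sequences in view.
H2-Aa (chr17:34287824-34288073, minus strand): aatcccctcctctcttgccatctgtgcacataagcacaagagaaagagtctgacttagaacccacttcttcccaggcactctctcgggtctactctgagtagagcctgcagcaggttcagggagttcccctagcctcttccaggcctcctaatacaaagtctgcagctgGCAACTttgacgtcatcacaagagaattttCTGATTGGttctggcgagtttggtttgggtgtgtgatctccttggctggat
H2-Eb1 (chr17:34305617-34305866, plus strand): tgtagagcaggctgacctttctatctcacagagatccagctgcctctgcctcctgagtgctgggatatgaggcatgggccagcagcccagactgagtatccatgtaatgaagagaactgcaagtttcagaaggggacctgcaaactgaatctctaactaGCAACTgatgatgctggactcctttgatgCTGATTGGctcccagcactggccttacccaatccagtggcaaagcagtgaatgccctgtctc
In H2-Aa the X box letters begin 81 and the Y box 51 bases before the transcript start, and in H2-Eb1 91 and 62 bases before it. Over the 32851 promoter windows, 9.01% hold GCAACT, 3.83% hold CTGATTGG and 0.341% hold both.

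In M against E, 79 of 4200 genes with at least 50 CPM in either tumour were at least 2-fold higher (1.88%) and 125 at least 2-fold lower (2.98%). The median of all genes was 0.19 on the log2 scale, and TMM scaling moved it by −0.23 and the counts to 41 higher and 194 lower. In the Total libraries 88 genes were higher (1.99%) and 133 lower (3%). Of 8 class II genes 5 were at least 2-fold lower, with a list median of −1.51, and in the Arg1-side macrophages the median of the same genes was −1.61. Of 11 genes of the interferon-gamma response 6 were lower and none higher, with a median of −1.22 against −0.93 on the Arg1 side. Of the 14 genes of the list that reached 50 CPM in any tumour, 12 were lower in M and the parental tumour than in each of the other 4, against 6.87% of all genes at that level. On the Arg1 side 11 of these 14 had the same order, against 8.05% of all genes. Gbp4, a guanylate-binding protein, had 57.8 CPM in E against 8.60 in M.

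Cxcl9, the interferon-gamma-induced chemokine for T cells, had 239 CPM in E, 632, 604 and 277 in EM1 to EM3, and 40.0 and 57.7 in M and the parental tumour. It was thus highest in EM1 and EM2 and lower in M than in E, with a log2 ratio of −2.32. Cd274, which encodes the checkpoint ligand PD-L1, had 439.9, 267, 249.9, 265, 83.8 and 122 CPM. Pdcd1lg2, the gene of PD-L2, had 123, 73.7, 26.5, 62.8, 5.59 and 8.11 CPM, a range that put E highest and M lowest. Of 11 checkpoint and inhibitory receptor genes compared in M against E, Pdcd1lg2 was the only gene past 2-fold, at −3.10, and the list median was −0.06. Cd274 was counted with the interferon-gamma list and not among these, and its ratio was −2.26.

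Complement genes did not share a direction between tumours. C1qb had 5146 CPM in E, 4896, 5053 and 4854 in EM1 to EM3, and 4911 and 4282 in M and the parental tumour, and no C1q gene differed by 2-fold in any of the 4 comparisons. C3, the central complement protein, had 507 CPM in E, 245 to 314 in EM1, EM2 and EM3, and 88.8 and 110.0 in M and the parental tumour. C4b had 655 CPM in E, against 136 in M and 77.4 in the parental line's tumour, and Cfb, a factor of the alternative pathway, from 711 in E to 174 in M. Of 11 complement genes compared in M against E, 3 were at least 2-fold lower and 1, the integrin Itgam, was higher, with 175 and 697 CPM.

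Of 14 scavenger receptor genes, 5 were at least 2-fold higher in M than in E and 1 lower, with a list median of 0.57 against 0.19 for all genes. On the Arg1 side the list had a median of 0.67, against 0.13 for all genes there, with 5 genes higher and 2 lower. Folr2 had 85.5 CPM in E, 128, 240.4 and 261 in EM1 to EM3, and 384 and 324 in M and the parental tumour. Stab1 had 186, 402, 469, 497, 615 and 367 CPM in that order. Fcrls had 123, 310.1, 713, 713, 1259.5 and 890.0 CPM, which describe the cells only, since the rule used this gene. F13a1, the coagulation factor XIII chain carried by monocytes and resident macrophages, had 97.3, 148, 380.5, 398, 672 and 611 CPM. Mgl2, a galactose lectin, was the exception, with 519 CPM in E against 89.9 in M. E was lowest of the 6 tumours for Folr2, Stab1 and F13a1 and highest for Mgl2.

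**Figure D4:**
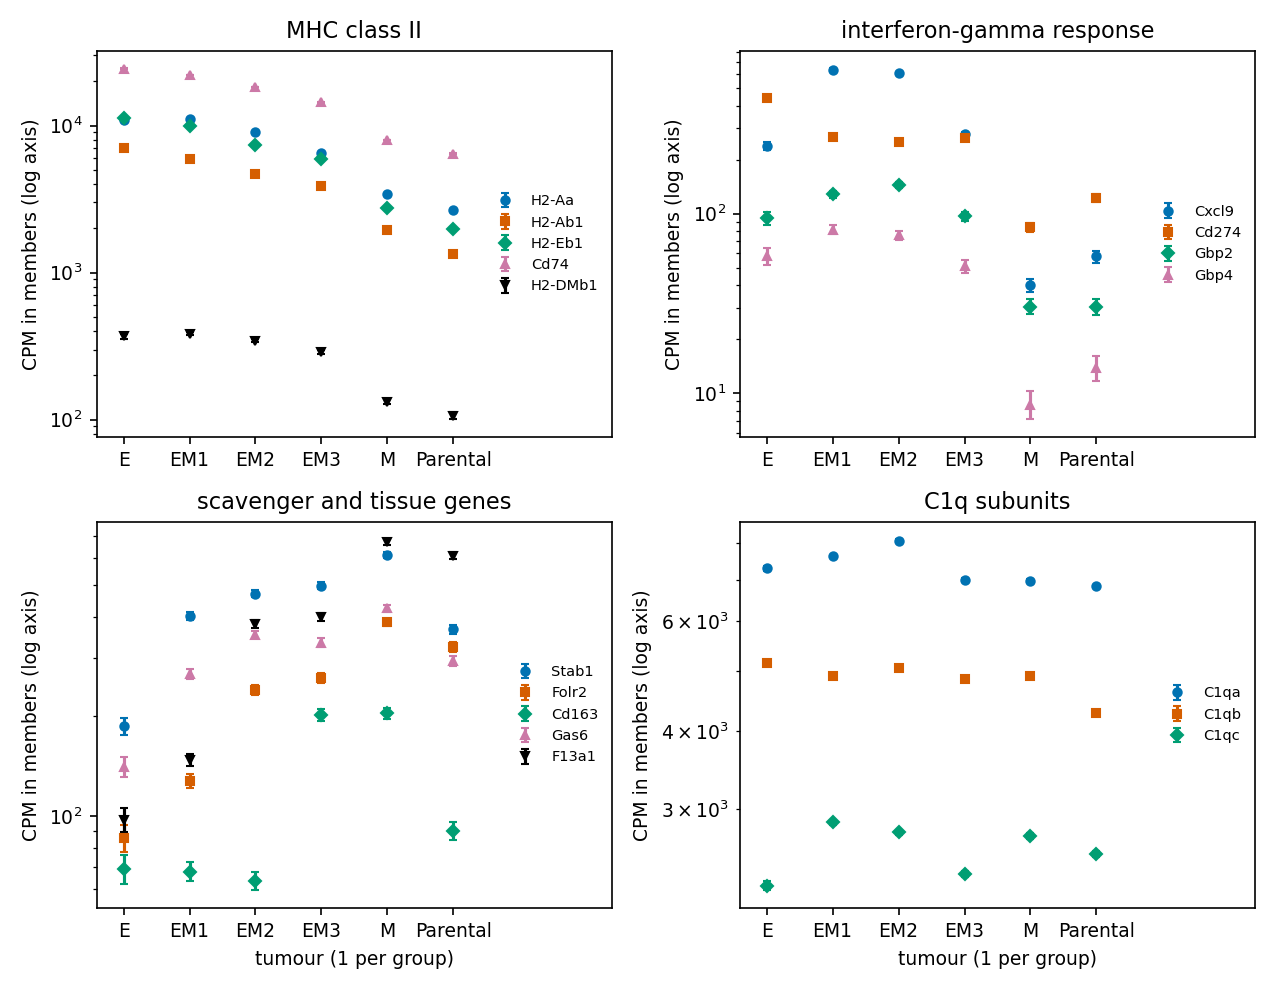
Level in the Mrc1/C1q macrophages (CPM, log y axis) by tumour (x axis) for 4 groups of genes. Symbols are genes and bars are 95% Poisson intervals. Of the MHC class II genes, H2-Aa runs from 11116 CPM in EM1 to 2659 in the parental tumour. Folr2 runs from 85.5 in E to 384 in M, and C1qb stays between 4282 and 5146.

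The other genes named for M against E were Gpr84, a receptor for medium-chain fatty acids, with 11.1 and 131 CPM, Krt80, a keratin, with 6.54 and 66.6, and Arsb, a lysosomal sulphatase, with 61.0 and 318. Lower in M were Pgf, placental growth factor, with 252 CPM against 17.2 in M, Plxdc2 with 225 and 22.9, and Ptgs2 with 493 and 43.8. For Inhba, a rule gene, E had 197 CPM and M 5.80. The log2 ratios of Ptgs2 and Inhba were −3.22 and −3.71, and −1.99 and −2.71 in the Total libraries. Those of Pgf and Plxdc2 were −3.27 and −2.84, and −3.35 and −2.86 in the Total libraries. Of all genes past 2-fold in the Mrc1/C1q macrophages, 78 of the 79 higher (all but Ccl6) and 125 of the 125 lower had the same sign on the Arg1 side, where 48 and 72 also passed 2-fold. The share of all genes with the same sign on both sides is not given here. Over all 4200 genes, 62 were at least 2-fold higher and 92 at least 2-fold lower on the Arg1 side.

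In EM3 against E, which shared a capture, 51 of 3954 genes were at least 2-fold higher (1.29%) and 40 lower (1.01%), and with TMM scaling 41 higher and 54 lower. The Total libraries gave 61 higher (1.47%) and 57 lower (1.37%). Of 15 scavenger receptor genes 5 were at least 2-fold higher and none lower, with a list median of 0.47 against 0.10 for all genes. Tumour E is in this comparison and in that of M against E. On the Arg1 side 3 genes of this list were higher and its median was 0.16, against 0.04 for all genes there. Over all 3954 genes, 17 were at least 2-fold higher and 19 at least 2-fold lower on that side. The difference between the sides was not tested. Cd163 had 69.01 CPM in E and 202 in EM3, and Lyve1, a hyaluronan receptor of resident macrophages, 17.3 and 74.5. Alox15, a lipoxygenase that makes specialised lipid mediators, had the largest ratio, 3.07, with 1.27 CPM in E, 0.589, 5.19 and 84.4 in EM1 to EM3, and 16.8 and 35.1 in M and the parental tumour. EM3 was the highest tumour for Alox15 on the Arg1 side as well, at 81.8 CPM. Hspa1b, a heat shock gene, had 996 CPM in EM3 and 199 in E, and the log2 ratio of 2.27 was 0.88 in the Total libraries. Cbr2, a carbonyl reductase, had 48.1 and 244 CPM, and Arsb 61.0 and 296.

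Chemokines of the list were mixed in EM3 against E, with 4 of 11 at least 2-fold higher, 1 lower and a list median of 0.60. On the Arg1 side 1 was higher, none was lower and the median was −0.06, against 0.04 for all genes there. The difference between the sides was not tested. Ccl6 had 394 and 1132 CPM in E and EM3, Ccl9 256 and 752, Pf4 147 and 353 and Ccl24, which draws eosinophils, 190.3 and 422, whereas Ccl5 had 176 and 52.6. Of 5 type I interferon genes 2 were lower. Isg15, a ubiquitin-like protein induced by interferon, had 547 CPM in E and 104 to 153 in the other 5 tumours, and Irf7 365 in E and 81.9 to 179 in the others. E thus stood above all other tumours for both genes, and on the Arg1 side too, at 426 and 254 CPM. Pgf, Spon1 and Adamdec1 were also lower in EM3, at 42.2, 66.8 and 47.3 CPM against 252, 307 and 227 in E. Inhba, of the rule, had 42.5 against 197.

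EM2 and EM1, which shared a capture, had the fewest such genes of the 4 pairs compared, with 9 of 3905 genes higher (0.23%) and 9 lower (0.23%), and 12 (0.292%) and 6 (0.146%) in the Total libraries. Ighg1 and Igkc, immunoglobulin genes of plasma cells, had the lowest ratios, −4.36 and −3.77. Ighg1 had 349 CPM in EM1 and 7.45 in EM2, and 88.3 and 7.66 on the Arg1 side, and in the Total library of EM1 it had 28.0. B cell markers summed to 20.6 CPM in the Mrc1/C1q macrophages of EM1, the highest of the 6 tumours, and to 12.4 in EM2. Their part in this difference was not tested. Adamdec1, a secreted protease-like protein of macrophages, had 167 and 40.8 CPM in EM1 and EM2, Ccl24 548 and 175, and Cd36, a lipid scavenger receptor, 184 and 60.0. Higher in EM2 were Gprc5a with 36.0 and 111 CPM, F10, coagulation factor X, with 18.9 and 64.6, and Kcnn4, a potassium channel, with 42.7 and 125. In the Total libraries the log2 ratio of Gprc5a was 1.06, while those of F10 and Kcnn4 fell short of 2-fold at 0.98 and 0.90. The other 2 named genes were probe rows marked as deprecated in the tables, each with a ratio of 1.39. They were not higher in the Total libraries, where the ratios were −0.50 and −0.000419.

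In the parental tumour against M, 27 of 4205 genes were higher (0.642%) and 24 lower (0.571%), and with TMM scaling 30 and 16. In the Total libraries 25 were higher (0.572%) and 26 lower (0.595%). Both the tumour and the capture differed. Mfge8, which tags dying cells for uptake, had 125 CPM in E, 21.5, 28.9 and 28.7 in EM1 to EM3, and 13.8 and 118 in M and the parental tumour, so that E and the parental tumour stood above the rest. The summed epithelial or tumour cell markers of these macrophages also stood highest there, at 18.0 CPM in E and 20.7 in the parental tumour. They were 8.03, 8.51 and 8.67 in EM1 to EM3 and 7.13 in M, and their part in the Mfge8 values was not tested. Ifitm1 had 663 CPM in the parental tumour and 134 to 192 in the others. Spp1 had 2465 CPM in E, 624, 1207 and 1585 in EM1 to EM3, and 2115 and 5053 in M and the parental tumour, and was highest there on the Arg1 side as well, at 5118. Plxdc2, Ptgs2 and Nt5e, the ectonucleotidase CD73, were higher by 2.10, 1.74 and 1.70. Klf2, a transcription factor, had 84.0 CPM against 360.4 in M, Olr1 13.1 against 53.8 and Cbr2 68.7 against 205, and a deprecated probe row had 21.1 against 118. The log2 ratio of the deprecated row was −2.04 here and −0.59 in the Total libraries, short of 2-fold. No class II gene passed 2-fold here on either side, and the list median was −0.30, against 0.22 on the Arg1 side.

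**Figure D5:**
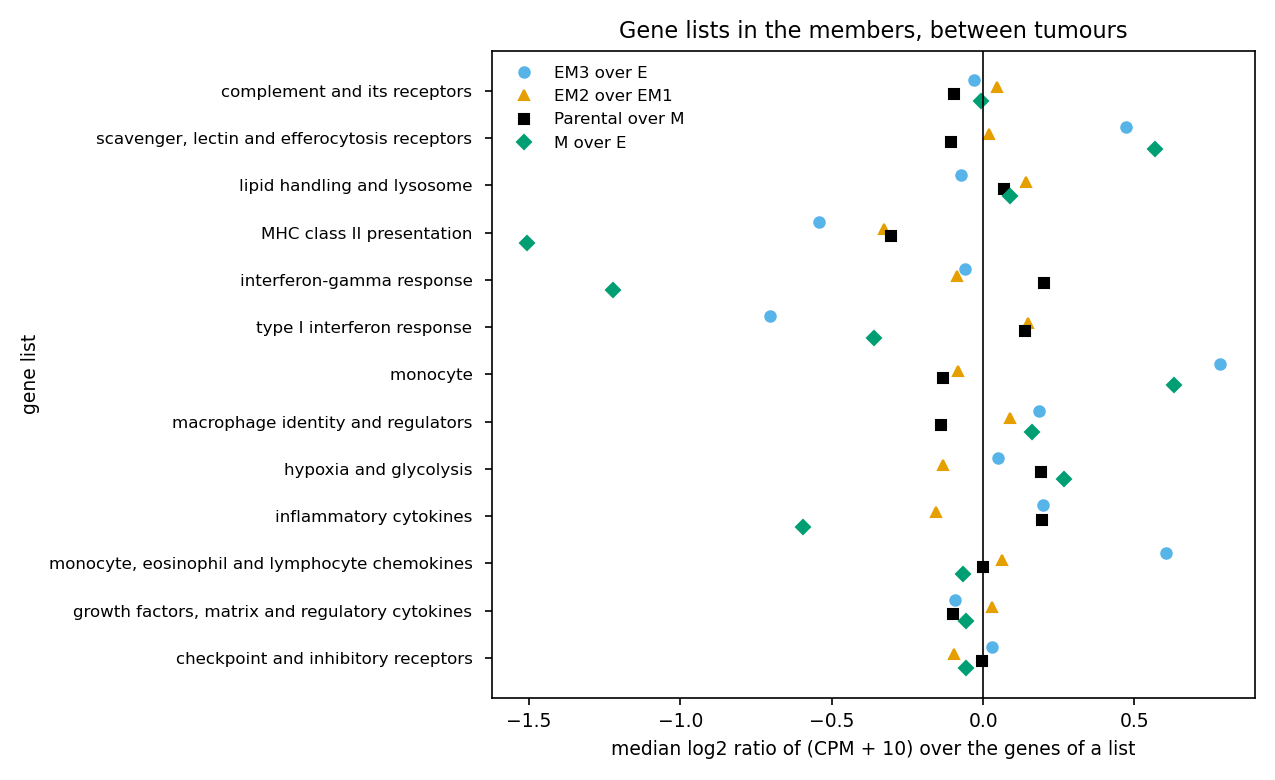
Median log2 ratio of (CPM + 10) in the Mrc1/C1q macrophages over the genes of each list (x axis) for 4 comparisons of tumours (symbols). MHC class II and the interferon-gamma response lie farthest below 0 in M over E, at −1.51 and −1.22, and the scavenger receptors lie at 0.57 and 0.47 in M over E and EM3 over E, which share tumour E.

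Finally, the share of Mrc1/C1q macrophages was set against the state of the tumour cells, the question of the series. State was scored in the annotated tumour cells of the Total libraries, as the mean log2(CPM + 10) over 12 genes of mesenchymal cells less the mean over 13 genes of epithelial cells. The score was −1.95 in E, 1.46, 2.09 and 3.36 in EM1 to EM3, and 2.73 and 1.09 in M and the parental tumour. Over the 6 tumours Pearson's r was 0.481 (exact permutation test, two-sided, p = 0.386) and Spearman's rho 0.257 (exact p = 0.658), in a family of 1 relation. With shares from the Total libraries the same exact permutation test gave r = 0.673 (p = 0.242) and rho = 0.371 (p = 0.497). No relation was thus detected with either kind of library. The scores of E and EM3 lay farthest from the median, and without these tumours r with the CD45 shares was 0.388 over 4 tumours (exact p = 0.583). So few tumours allow too few orders for a low exact p, so this value cannot decide whether a relation exists. EM3 had the highest score and the second-lowest share. No capture held more than 2 tumours, so no correlation within captures can be had. Within the 2 captures that held a pair, the tumour with the higher score had the higher share for EM3 and E and the lower share for EM2 and EM1.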

How the data were processed

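Single cells of 6 tumours, each split into a Total and a CD45 library, were measured with a fixed-RNA droplet assay. The deposited tables give an unnormalized UMI count for each gene in each cell, made with Cell Ranger on mm10, per the submitters' processing notes. Cells were filtered by the authors, with limits not given in the sources used here. Per the file headers, the authors' cell tables also hold the mitochondrial percentage and fraction of each cell and a complexity score (log10 genes over log10 UMIs), and 2 cell type annotations. The percentage was recomputed from the counts, with the same value in every cell to within rounding, and set beside the split of macrophages, while the score was not used. The members and gene lists were chosen with earlier results of these data known.

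Doublets were scored per library with Scrublet in scanpy 1.11.5 and called at 1 score limit for all libraries, 0.2975, the median of the automatic limits of the libraries (0.244 to 0.677, of which 0.623 to 0.677 in the CD45 libraries of EM3, M and the parental tumour). This marked 2135 of 115612 cells (1.85%). UMIs were summed over the cells of a side in each tumour and scaled to CPM, and ratios are log2 of (CPM + 10). Genes entered the comparison of sides with a mean of 20 CPM over its sums, and that of tumours with 50 CPM in either tumour. A gene was counted at 2-fold, for the sides in all 6 tumours. TMM factors came from edgeR 4.0.16 and were used for scaling only. Shares have 95% Clopper-Pearson intervals and levels exact Poisson intervals, which cover counting error only. The sums over Mrc1/C1q macrophages held 5506124 to 15036126 UMIs.

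The text names the 12 highest and 12 lowest genes by the ratio nearest to 0 between sides, the 5 highest and 5 lowest of each comparison of tumours, the rule genes and genes of 14 fixed lists, of whose 235 genes 6 were not in the tables used. Some genes that this rule names are not reported here. Alternatives were other rules for the split, thinning, scaling, pseudocounts, filters, the Total libraries and leaving out each tumour. The scripts were tested on simulated data.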

Additional observations from a re-analysis of the deposited data

How the results depend on the processing

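With Arg1 left out of the rule the shares of macrophages on the Mrc1 and C1q side were 18.3%, 70.0%, 55.2%, 31.7%, 66.3% and 50.7% in E, EM1, EM2, EM3, M and the parental tumour, and EM3 exceeded E by 13.4 points. In the Total libraries the shares of E, EM2, EM3, M and the parental tumour were 16.8%, 54.3%, 40.2%, 66.6% and 51.5%. The differences there were 23.4 points for EM3 minus E, −12.1 for EM2 minus EM1, −15.1 for the parental tumour minus M and 49.8 for M minus E. With a sum at least 4 times the other, chosen after seeing the data, the shares were 2.38%, 31.6%, 20.9%, 5.18%, 33.1% and 10.8%, and the differences 2.79, −10.7, −22.3 and 30.7 points. A margin of 3 UMIs gave 40.5% in the parental tumour. None of these 4 differences changed sign under these settings. M lay below EM1 in the main setting (59.9% and 66.1%), but above it in the Total libraries (66.6% and 66.4%) and with the 4-fold rule. The cause of the shifts was not tested.

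Against 27 genes higher between sides, the counts were 15 in the Total libraries (11 of them among the 27), 16 with TMM scaling, 47 with a pseudocount of 1, 6 with one of 50, 17 with a filter of 100 CPM and 161 with the 4-fold rule. Against 51 lower genes they were 22 with a pseudocount of 50, 21 with the filter of 100 CPM and 150 with the 4-fold rule. Leaving out each tumour gave 27 to 36 higher and 52 to 61 lower. Between tumours the genes past 2-fold in either direction numbered 137 for EM3 over E and 28 for the parental tumour over M with the 4-fold rule. With a pseudocount of 50 they were 48 for EM3 over E, 8 for EM2 over EM1, 21 for the parental tumour over M and 97 for M over E. The deprecated probe rows changed sign for EM2 over EM1 in the Total libraries, at −0.50 and −0.000419. No paired analysis was possible because each group is 1 tumour and no labels number replicates. This concerns the comparisons of tumours, since the sides were compared within each tumour. With 1 tumour a group, depth limits only the counting error, and the spread between tumours of a group is unknown.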
